A study of Mus musculus with 24 samples.

Results

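The 4 genes Ddx4, Piwil2, Prm1 and Stra8, which are known for their work in germ cells, were followed through H3K9me2 chromatin immunoprecipitation of mouse heart. They were selected on read counts, as germ line genes with regions that held enough reads to be tested. This does not set them apart: 33 of 76 other germ line genes also had a region tested against input in each biopsy. Every listed region that overlaps one of the 4 genes or lies within 2 kb of it was kept (mm10 coordinates, RefSeq genes of GRCm38.p6). This gave 7 regions of the 53386 listed: 1 at Ddx4, 4 at Piwil2, 1 at Prm1 and 1 at Stra8. The genes were proposed with the results of H3K9me2 against input already known, so those results are given here as a description. Their silence in heart was not measured, since chromatin libraries do not show expression.

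The series holds 24 libraries from cardiac biopsies of 6 mice of strain C57BL6, 3 female and 3 male, all 12 months old. Every mouse went through ischemic preconditioning, a series of short coronary occlusions that protects the heart against a later long one: 4 cycles of 5 min occlusion of the left coronary artery and 5 min reperfusion, then 30 min reperfusion. Each heart gave a biopsy of the area at risk (AAR, the muscle behind the ligature) and one of the remote myocardium (RM), and each biopsy an H3K9me2 library and an input library (digested chromatin that was not precipitated), so that there are 4 groups of 6. No heart without the procedure was analysed here, and each biopsy is bulk tissue, in which a mark in few cells and a weak mark in many cells cannot be told apart.

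Dimethylation of histone H3 at lysine 9 marks silent genes and is laid down by Ehmt2 (G9a) and Ehmt1 (GLP), methyltransferases that work as a pair. Genes that serve germ cells are kept off in somatic tissues by DNA methylation and by a repressor complex of the Polycomb family, PRC1.6, which finds promoters through E2F6 and through Mga with Max and which brings the same methyltransferases. Mga and Max bind the E-box CACGTG, and E2F6 binds sites with the core TCCCGC.

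The RefSeq table of GRCm38.p6 held a promoter (250 bases before to 50 bases after the start site) for 3 of the 4, namely Ddx4, Prm1 and Stra8, and of these only that of Prm1 lay inside a listed region. The 250 bases before the start sites of Prm1 (chr16:10796824-10797073, minus strand) and Ddx4 (chr13:112652311-112652560, minus strand) are printed 5′ to 3′ with each CpG in capitals, because they are far apart in CpG content, the substrate of DNA methylation.
Prm1: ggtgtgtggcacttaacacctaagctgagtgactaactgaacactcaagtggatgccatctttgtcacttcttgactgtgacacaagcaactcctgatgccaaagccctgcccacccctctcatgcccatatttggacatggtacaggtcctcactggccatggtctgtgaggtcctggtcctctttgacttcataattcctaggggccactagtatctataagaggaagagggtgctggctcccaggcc
Ddx4: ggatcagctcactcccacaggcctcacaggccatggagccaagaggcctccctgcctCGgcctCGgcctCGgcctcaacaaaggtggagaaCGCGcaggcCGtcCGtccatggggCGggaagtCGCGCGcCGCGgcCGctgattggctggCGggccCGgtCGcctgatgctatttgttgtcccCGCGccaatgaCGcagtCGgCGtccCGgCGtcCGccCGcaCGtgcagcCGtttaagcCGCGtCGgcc
The Prm1 stretch holds 0 CpG and the Ddx4 stretch 31. Over the full 300 bases the count was 1 for Prm1, 10 for Stra8 and 38 for Ddx4, against a median of 7 over the 32851 promoters of the table. Both motifs were searched on both strands and do not overlap each other. Ddx4 had 1 match to CACGTG, 29 bases before the start site, and 1 to TCCCGC, 136 bases before it and read on the other strand, while the windows of Prm1 and Stra8 held neither. For comparison, CACGTG occurred in 7.15% of all promoters, TCCCGC in 19.98% and both in 1.99%.

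The regions sat at different places in the genes. At Prm1, which encodes the protamine that replaces histones in the sperm head, the region chr16:10794400-10797199 spanned the whole 492-base gene and its promoter. At Ddx4, the germ cell RNA helicase also called Vasa, the region chr13:112644200-112648199 lay inside the gene, 4.11 kb downstream of the start site. At Stra8, the gene that retinoic acid turns on at the entry into meiosis, the region chr6:34926200-34931599 lay inside the gene, 5.25 kb downstream of the start site, and covered 28.2% of it. Piwil2, a PIWI protein that binds piRNAs and silences transposons, had region 1 (chr14:70402400-70402999), region 2 (chr14:70421200-70423999) and region 3 (chr14:70433400-70435599) inside the gene. Region 3 ended 1.299 kb from the gene's high-coordinate end. Region 4 (chr14:70438200-70441999) lay outside Piwil2, beyond that end, and within 2 kb of Polr3d, a subunit of RNA polymerase III, and Mir320 as well. Region 2 also lay within 2 kb of the small RNA gene Gm22725. None of the 7 overlapped another listed region.

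**Figure D1:**
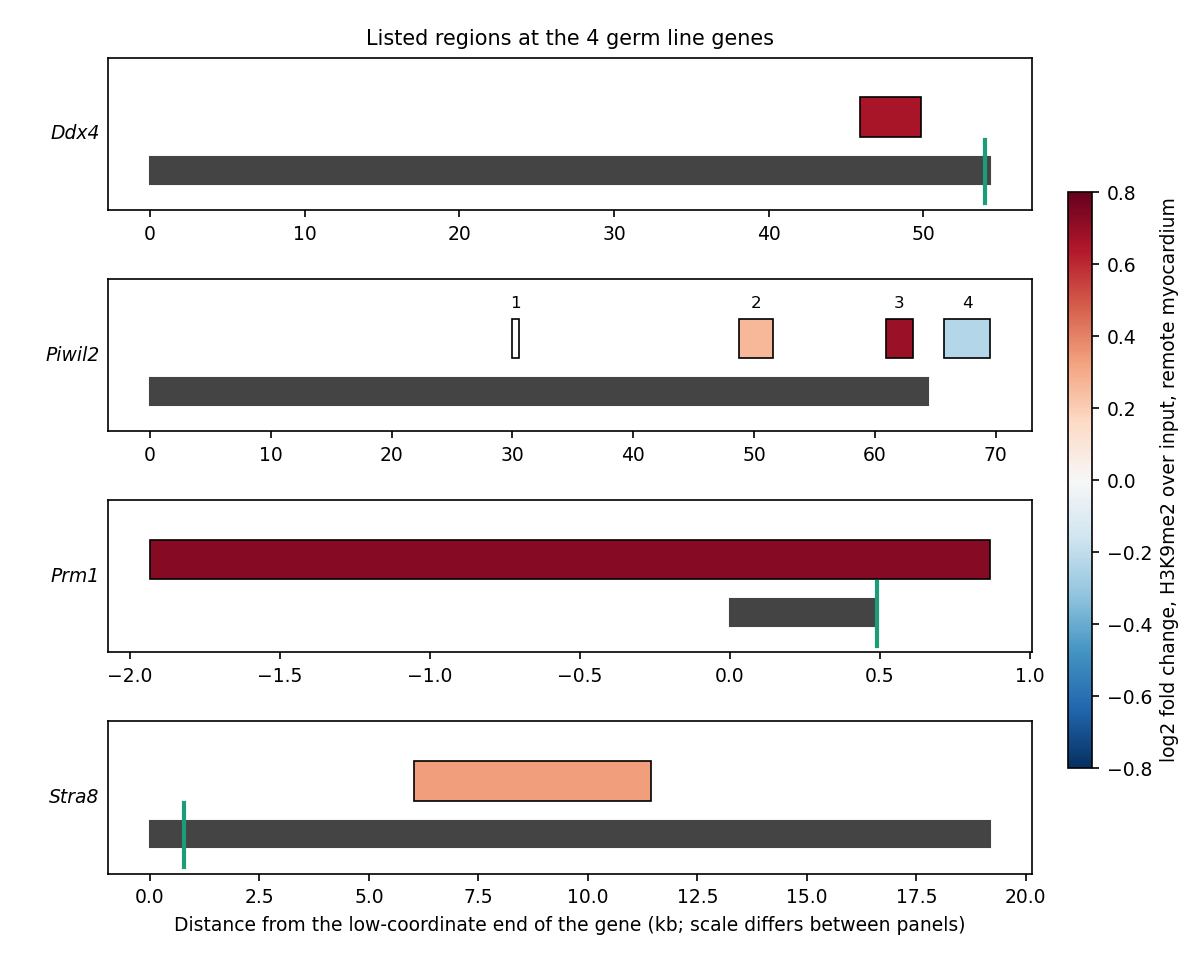
Position of the 7 listed regions (boxes) on the 4 genes (dark bars), in kb from the low-coordinate end of each gene, with the scale differing between panels; the green line is the start site where the RefSeq table gives one. Box colour is the log2 fold change of H3K9me2 over input in remote biopsies, from -0.23 at Piwil2 region 4 to 0.73 at Prm1, and the white box, Piwil2 region 1, was not tested there.

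Library totals in the listed regions ran from 416683 to 1196368 reads in the H3K9me2 libraries and from 1286383 to 2478668 in the inputs. The 7 regions held from 1 to 58 reads in an H3K9me2 library and from 6 to 108 in an input, so that a single library says little and the groups of 6 carry the comparison. Values are given as CPM, reads of the region per 1000000 reads of the library in listed regions, and differences as log2 fold changes with their standard error (SE) from edgeR's quasi-likelihood test, called where the Benjamini-Hochberg adjusted p over all tested regions was under 0.05. Piwil2 region 1, only 600 bases wide, failed the filter on low counts in 3 of the 5 comparisons: between the H3K9me2 groups 0 of 12 libraries reached the 14.7 CPM it asked for, and against input 5 of 12 reached 8.06 CPM in the area at risk and 5 of 12 reached 8.38 CPM in the remote myocardium. At the other 6 regions every library reached the level asked for.

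H3K9me2 stood above input at Ddx4 and at Piwil2 region 3 in both biopsies. At Prm1 and Stra8 the difference passed the test in the remote myocardium and not in the area at risk. In the area at risk 2 of the 6 tested regions were called higher over input, where 23.6% of the 40928 tested regions were called, 11.3% higher and 12.3% lower. Of the remote myocardium 4 of 6 were called higher, where 40.5% of 40767 tested regions were called, 20.5% higher and 20% lower. None of the 6 was called lower in either biopsy. The median log2 fold change of the 6 was 0.36 for the area at risk and 0.50 for the remote myocardium, against 0.01 for all tested regions in each. The genes were proposed with this contrast known, so these shares describe the 6 regions and nothing is read from them. Placed among all tested regions, the fitted value of Ddx4 stood at the 94.3rd percentile in the area at risk and the 91.4th in the remote myocardium. Piwil2 region 3 stood at the 96.3rd and 92.5th percentile, and Prm1 at the 83.7th and 93.9th, in the same order. Lower positions were those of Stra8 (58.3rd in the area at risk, 74.1st in the remote myocardium), Piwil2 region 2 (74.9th and 69.2nd) and Piwil2 region 4 (33.3rd and 32.9th). The authors' deposited tables gave the same calls at their FDR of 0.05, with Stra8 in the remote myocardium at a deposited FDR of 0.0445.

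**Figure D2:**
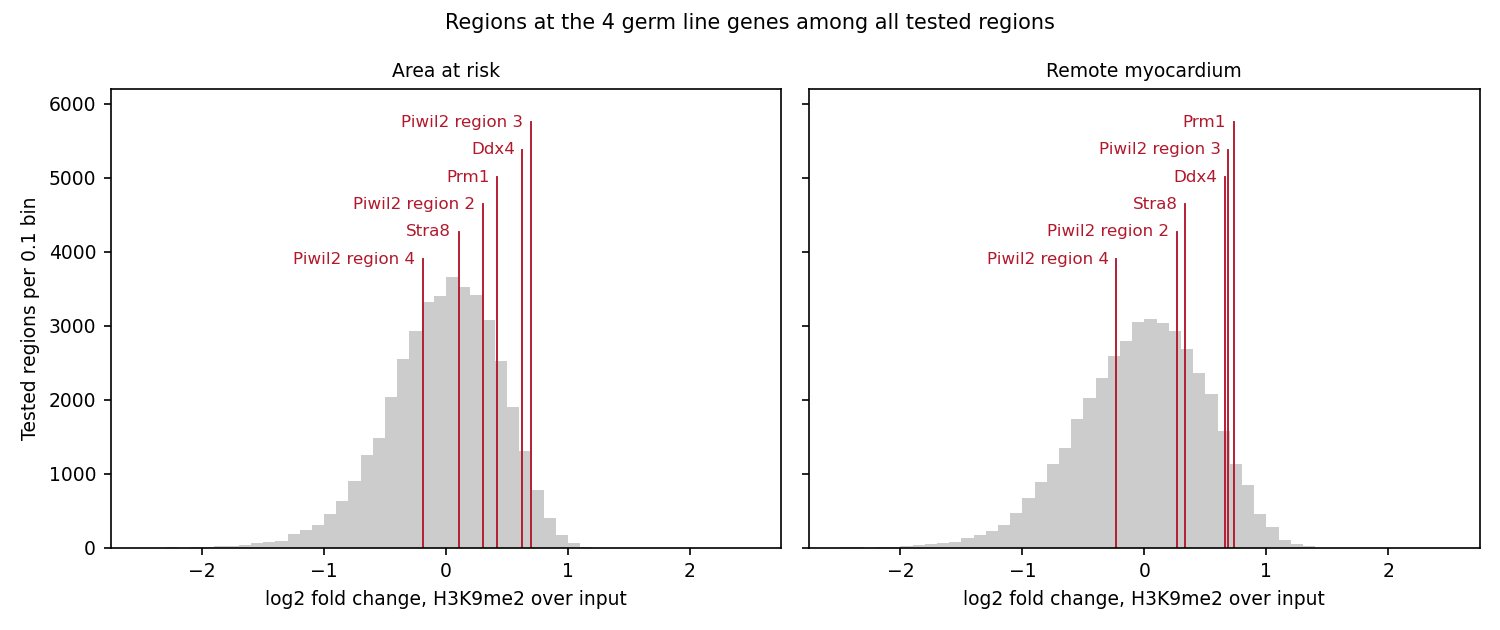
Number of tested regions (vertical axis) by log2 fold change of H3K9me2 over input (horizontal axis, bins of 0.1) in the area at risk (left) and the remote myocardium (right), with red lines at the 6 tested regions of the 4 genes. Ddx4, Piwil2 region 3 and Prm1 stand in the upper slope of the distribution, at 0.66, 0.69 and 0.73 in the remote myocardium, and Piwil2 region 4 stands below 0.

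At Ddx4, H3K9me2 was above input in every mouse in both biopsies. Its CPM in the area at risk ran from 34.1 to 72.0 in H3K9me2 libraries (median 43.3) and from 19.0 to 33.1 in inputs (median 31.2). Remote biopsies gave 32.1 to 49.4 in H3K9me2 libraries (median 42.8) and 21.2 to 38.5 in inputs (median 24.5). The groups did not overlap in the area at risk, where 7.97% of all tested regions had groups that do not overlap, and they overlapped in the remote myocardium, where the input of mouse 23 was the highest. The log2 fold change over input was 0.62 (SE 0.16), a fold of 1.54, in the area at risk and 0.66 (SE 0.15), a fold of 1.58, in the remote myocardium, and both were called.

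Piwil2 region 3 was the region of that gene with the most H3K9me2 over input. Its CPM in the area at risk ran from 30.1 to 36.0 (median 32.5) in H3K9me2 libraries and from 14.9 to 29.6 (median 19.5) in inputs. For the remote myocardium the range was 21.4 to 41.8 (median 29.8) in H3K9me2 libraries and 10.6 to 23.2 (median 19.9) in inputs. The H3K9me2 libraries were above the input of the same mouse in 6 of 6 mice in each biopsy, without overlap of the groups in the area at risk and with overlap in the remote myocardium. The log2 fold changes of 0.69 (SE 0.18) in each biopsy, folds of 1.62 (area at risk) and 1.61 (remote), were called.

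The other regions at Piwil2 were not called in either biopsy. Region 2 held 16.6 to 35.1 CPM over the 24 libraries and was at 0.30 (SE 0.18) in the area at risk and 0.27 (SE 0.17) in the remote myocardium on the log2 scale. Region 4, in the flank shared with Polr3d and Mir320, held 16.8 to 40.6 CPM. It was the only one of the 6 tested regions with fitted values below 0, at -0.19 (SE 0.17) and -0.23 (SE 0.16), and its H3K9me2 library was above input in 2 of 6 mice in each biopsy. Region 1 had group medians of 6.24 to 9.02 CPM, all 4 groups overlapping, and H3K9me2 was above input in 3 of 6 mice in the area at risk and 4 of 6 in the remote myocardium.

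Prm1 had the highest fitted value of the 6 tested regions in the remote myocardium. Its remote CPM ran from 35.7 to 48.1 in H3K9me2 libraries (median 39.0) and from 20.6 to 30.1 in inputs (median 24.3). In the area at risk H3K9me2 libraries ran from 30.9 to 40.1 CPM (median 34.2) and inputs from 18.6 to 37.0 CPM (median 25.8). The groups were apart in the remote myocardium, where 15.3% of all tested regions had groups that do not overlap, and overlapped in the area at risk through the inputs of mice 19 and 27. The log2 fold change was 0.73 (SE 0.15), a fold of 1.66, in the remote myocardium, and it was called. It was 0.42 (SE 0.17) in the area at risk, above input in 6 of 6 mice, and it was not called (edgeR's quasi-likelihood test, adjusted p = 0.0635). With all 24 libraries in one fit it was called there, with an adjusted p of 0.0379 by edgeR, and over all 13 alternatives this p ran from 0.0379 to 0.146.

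At Stra8, H3K9me2 was called over input in the remote myocardium, by the smallest fitted value of the 4 called there. Its remote CPM ran from 49.9 to 71.2 in H3K9me2 libraries (median 60.7) and from 37.0 to 63.9 in inputs (median 44.4). In the area at risk it ran from 30.6 to 56.8 in H3K9me2 libraries (median 47.0) and from 37.3 to 59.2 in inputs (median 39.0). H3K9me2 and input overlapped in both biopsies, and the highest remote input was that of mouse 23. The log2 fold change was 0.34 (SE 0.12) in the remote myocardium, higher in 6 of 6 mice and called (edgeR's quasi-likelihood test, adjusted p = 0.0204), and 0.10 (SE 0.15) in the area at risk, higher in 3 of 6 mice and not called. In mouse 23 the remote values were nearly equal, at 63.8915 CPM for H3K9me2 and 63.8865 CPM for input. The remote call was lost at an FDR of 0.01, with DESeq2 (0.35, adjusted p = 0.055) and in edgeR without mouse 17 (0.29, adjusted p = 0.0798), mouse 19 (0.27, adjusted p = 0.115) or mouse 22 (0.28, adjusted p = 0.0856).

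**Figure D3:**
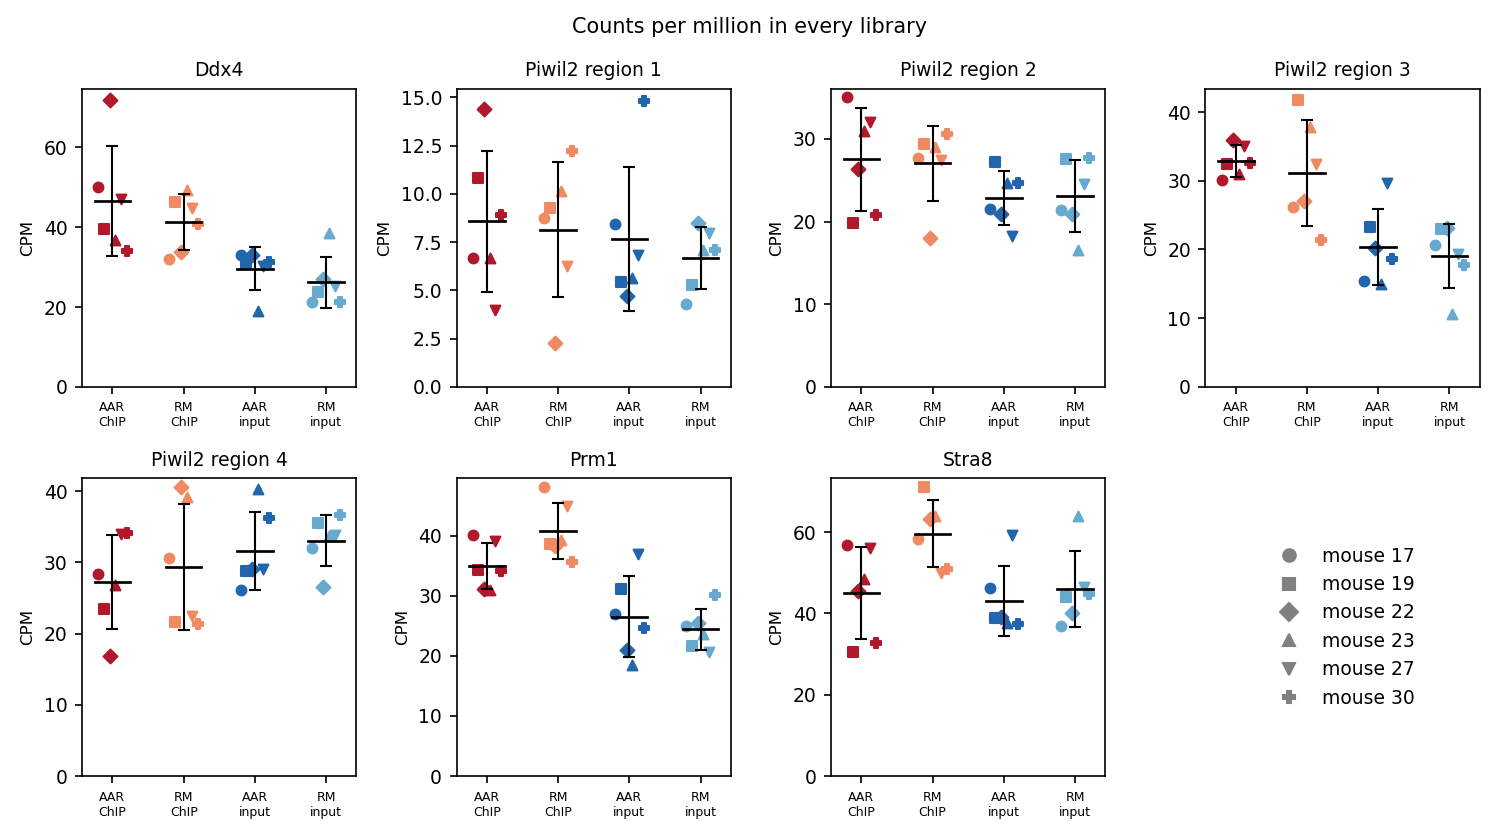
CPM (vertical axis, from 0) of the 7 regions in each of the 24 libraries, one panel per region; colours are the 4 groups of 6 (ChIP stands for H3K9me2), symbols the mice, horizontal lines the means and bars the SD. At Piwil2 region 3 all H3K9me2 libraries of the area at risk, from 30.1 CPM upward, sit above all inputs of the area at risk, which reach 29.6 CPM, while at Piwil2 region 4 the 4 groups overlap.

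Levels between genes can be compared only per length. Per kb, H3K9me2 in the area at risk was highest at Piwil2 region 3, with 14.9 CPM per kb (SD 1.04, n = 6), followed by Piwil2 region 1 at 14.3 (SD 6.10), Prm1 at 12.5 (SD 1.38), Ddx4 at 11.7 (SD 3.46), Piwil2 region 2 at 9.82 (SD 2.24), Stra8 at 8.34 (SD 2.09) and Piwil2 region 4 at 7.17 (SD 1.74). The order in the remote myocardium was Prm1 at 14.6 CPM per kb (SD 1.67), Piwil2 region 3 at 14.1 (SD 3.49), Piwil2 region 1 at 13.6 (SD 5.81), Stra8 at 11.0 (SD 1.52), Ddx4 at 10.3 (SD 1.75), Piwil2 region 2 at 9.65 (SD 1.62) and Piwil2 region 4 at 7.72 (SD 2.34). Within both orders each neighbouring pair differed by less than the larger of its SDs. Piwil2 region 1 was also dense in input, with 12.0 CPM per kb, at the 99.5th percentile of regions with reads, where Ddx4 had the lowest input density of the 7 with 6.97 CPM per kb. The median input density of all regions with reads was 8.33 CPM per kb. The high H3K9me2 density of Piwil2 region 1 thus came with a high input density, and that of Piwil2 region 3 came with 8.96 CPM per kb of input.

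The study asked whether heart muscle that went through occlusion differs in H3K9me2 from remote muscle of the same hearts. None of the 6 tested regions was called between the biopsies, and 0% of 31526 tested regions were called. edgeR's quasi-likelihood test gave 0 calls with 1272 regions at an unadjusted p under 0.05 (4.03%), and DESeq2 gave 0 with 454. The smallest adjusted p of any region in edgeR was 0.735, and all 6 tested regions were at 0.999. Without mouse 19 the edgeR fit called 1 region, which was none of the 7. Ddx4 stood at 0.11 (SE 0.17), Piwil2 region 2 at 0.03 (SE 0.20), region 3 at 0.09 (SE 0.19) and region 4 at 0.01 (SE 0.20), with 3 or 4 of 6 mice higher in the area at risk at each. A missing call does not show that the biopsies are alike: the 95% interval of the Ddx4 difference ran from -0.23 to 0.44.

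Stra8 and Prm1 had the lowest values of this comparison among the 6 tested regions. At Stra8 the H3K9me2 CPM had medians of 47.0 (area at risk) and 60.7 (remote), and the area at risk was lower in 5 of 6 mice, with mouse 27 the exception. The 2 groups overlapped. Groups without overlap were rare in this comparison, at 0.168% of all tested regions, and none of the 7 regions was among them. The log2 fold change was -0.34 (SE 0.16), with a 95% interval from -0.66 to -0.03, and edgeR's quasi-likelihood test gave an unadjusted p of 0.0302 and an adjusted p of 0.999. It was -0.22 without mouse 19 and -0.48 without mouse 27. At Prm1 the area at risk was lower in 6 of 6 mice, at -0.22 (SE 0.17), with an unadjusted p of 0.211 by the same edgeR test. Its groups also overlapped, between 35.7 and 40.1 CPM.

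**Figure D4:**
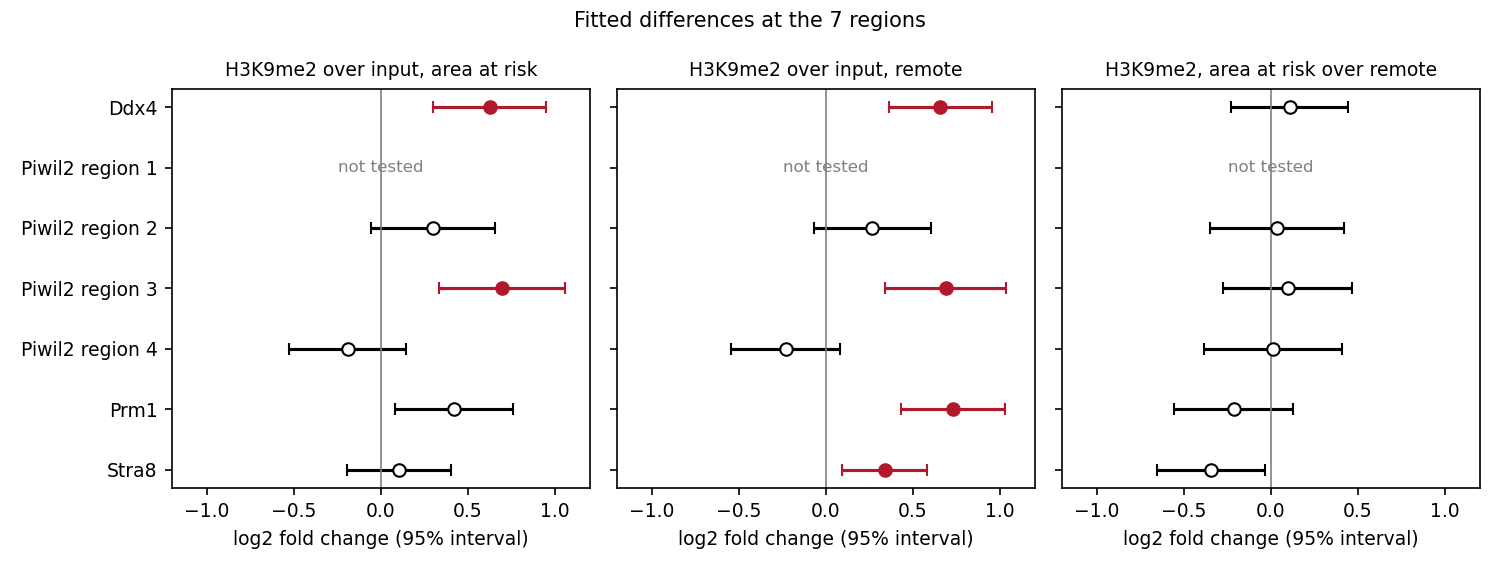
Fitted log2 fold changes (horizontal axis) with 95% intervals at the 7 regions for H3K9me2 over input in the area at risk (left), over input in the remote myocardium (middle) and for H3K9me2 of the area at risk over the remote myocardium (right); filled red points were called at an adjusted p under 0.05 by edgeR's quasi-likelihood test. There are 2 filled points in the left panel, 4 in the middle and 0 in the right, where the Stra8 interval from -0.66 to -0.03 is the only one that does not reach 0.

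The inputs of the biopsies were compared as a control. At the 7 regions, all of which passed this filter, the log2 difference of the area at risk over the remote myocardium ran from -0.11 at Stra8 to 0.19 at Piwil2 region 1, and none was called. Without mouse 23 the Ddx4 difference was 0.41, also not called. At each of the 7 the input groups overlapped, and 0.136% of all tested regions had inputs without overlap. Over all regions 0% of 42603 were called by edgeR's quasi-likelihood test (1157 at an unadjusted p under 0.05) and 0 by DESeq2 (626). The input-corrected difference, the interaction over all 24 libraries, asks whether H3K9me2 over input differs between the biopsies, and 0% of 42445 regions were called by edgeR (1728 at an unadjusted p under 0.05) and 0 by DESeq2 (1127). Prm1 stood at -0.30 (SE 0.22), Stra8 at -0.23 (SE 0.20) and Piwil2 region 1 at -0.34 (SE 0.47), and the other 4 regions ran from -0.03 to 0.05. With 1 mouse left out the value ran from -0.44 (without mouse 30) to -0.15 (without mouse 27) at Prm1 and from -0.38 (without mouse 23) to -0.11 (without mouse 19) at Stra8. Prm1 and Stra8 were thus called over input in the remote myocardium and not in the area at risk, but the difference of these enrichments was not called.

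Regions around the genes were described in the same way. Of the other listed regions within 100 kb of Piwil2, 23 passed the filter in each biopsy, and all of them were below Piwil2 region 3, with medians of -0.04 for the area at risk and -0.03 for the remote myocardium. The highest was 0.53 in the area at risk, at Phyhip. Around Prm1 the median was 0.19 over 19 regions in the area at risk, where 3 regions were above Prm1, the highest at 0.60. It was 0.12 over 20 in the remote myocardium, where 1 region was above Prm1, at 0.79, by Clec16a. Around Stra8 the median was -0.09 over 10 regions and -0.36 over 11, with 2 regions above Stra8 in each biopsy. Around Ddx4 just 4 and 3 regions were tested, with medians of 0.48 and 0.43. One of them was above Ddx4 in each biopsy, at the cytokine receptor gene Il31ra. The median of its neighbours was nearer to Ddx4's own value than was the case at the other 3 genes. These values describe regions chosen with the contrast known.

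To place the patterns over libraries, the region of each gene with the highest mean CPM was correlated with every other gene region over the 24 libraries, on log2(CPM + 1); these are descriptions, and the 12 H3K9me2 and 12 input libraries share their library type. Ddx4 was most like Gm38530 (Pearson's r 0.883), Gm34354 (0.855) and Sntg2 (0.854). Prm1 was most like Asic2 (0.891), Gm34828 (0.876) and the region shared by Gm12865 and Gm24352 (0.857). For these pairs the r within the 12 H3K9me2 libraries was 0.786 to 0.872 for Ddx4 and 0.421 to 0.679 for Prm1, so the likeness of Prm1 was weaker once the library type was held. Stra8 was most like Zdhhc14 (0.810), Fmnl2 (0.740) and the region of Gm1604a and Rsph3a (0.737). Within the 12 H3K9me2 libraries the r of these Stra8 pairs was 0.924, 0.783 and 0.962. For Piwil2 the rule takes region 4, the flank, which was like Sh2d6 (0.821) and the region of Smg5 and Tmem79 (0.764). For these 2 pairs the r within the H3K9me2 libraries was 0.925 and 0.875. Among the 7 regions themselves r was highest between Piwil2 region 3 and Prm1 (0.703) and lowest between Ddx4 and Piwil2 region 4 (-0.586).

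Beside the 4, 76 other germ line genes, listed by role, were described. Of these 34 had a listed region, 77 regions in all, of which 5 held no reads. Over input, 7 of 64 tested regions were called higher and 4 lower in the area at risk, and 16 of 63 higher and 6 lower in the remote myocardium, with medians of 0.08 and 0.10 on the log2 scale against 0.01 for all tested regions in each. The shares called higher were 10.9% and 25.4%, where 11.3% and 20.5% of all tested regions were, so both lay near the share over all regions. This list too was chosen with results over input known. In the area at risk the count of higher regions was 4 without mouse 17 and 3 without mouse 27, and that of lower regions was 2 without mouse 17, 19, 27 or 30. For the remote myocardium the count of higher regions was 10 without mouse 19. None of these regions was called between the biopsies by edgeR's quasi-likelihood test (2 of 55 at an unadjusted p under 0.05), between the inputs (1 of 65) or in the input-corrected difference (5 of 65).

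The piRNA pathway, which makes the small RNAs that Piwil2 carries, had 7 of 15 tested regions called higher and 0 lower in the remote myocardium, with a median of 0.38, and 2 of 15 higher in the area at risk, with a median of 0.22. That is 46.7% of its regions in the remote myocardium, where 20.5% of all tested regions were called higher, and 13.3% in the area at risk, near the 11.3% of all tested regions. Several of these calls fell in 1 gene, Tdrd9, which has 6 listed regions. By gene, the pathway had 5 genes called higher in the remote myocardium and 1, Tdrd9, in the area at risk. Its named regions in the remote myocardium were those of the Tudor protein genes Tdrd6 at 0.60 (SE 0.19) and Tdrd9 at 0.59 (SE 0.18), of Tex19.1, a guard against transposons, at 0.56 (SE 0.18), of the co-chaperone gene Fkbp6 at 0.55 (SE 0.20) and of the helicase gene Mov10l1 at 0.45 (SE 0.17). Tdrd9 was called in the area at risk too, at 0.69 (SE 0.19), and the named regions of the other 4 genes were not, at 0.16 to 0.46. Each of the 5 regions overlapped its gene and had no other gene within 2 kb.

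Meiosis genes had 6 of 23 regions called higher and 2 lower in the remote myocardium and 4 of 24 higher and 0 lower in the area at risk. The shares called higher were 26.1% and 16.7%, against 20.5% and 11.3% of all tested regions. Those of Meioc, which keeps germ cells in the meiotic program, Tex14, a protein of the bridges between germ cells, and Syce2, part of the synaptonemal complex, were called at 0.55 (SE 0.19), 0.54 (SE 0.15) and 0.41 (SE 0.18) in the remote myocardium, and all 3 were called in the area at risk as well. The Syce2 region also lies within 2 kb of Gcdh. Regions by the meiotic cohesin gene Rec8 and by Mei1, needed for meiotic double-strand breaks, were called lower in the remote myocardium, at -1.21 (SE 0.29) and -0.93 (SE 0.30). In the area at risk they stood at -0.25 (SE 0.26) and 0.05 (SE 0.29) and were not called. Neither of these overlaps the germ line gene, and they lie within 2 kb of Ipo4 and Ccdc134.

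Among 10 tested regions of sperm genes, 2 were called higher and 2 lower in the remote myocardium, and 0 higher and 2 lower in the area at risk. The remote shares are those of all tested regions, 20.5% of which were called higher and 20% lower, and in the area at risk 11.3% of all were higher and 12.3% lower. Spata3 reached 1.03 (SE 0.16) in the remote myocardium, the highest value of these regions, and Ldhc, the lactate dehydrogenase of sperm, 0.54 (SE 0.16). The Ldhc region also lies within 2 kb of Gm39011. The regions lower in both biopsies were at Tssk6, a kinase of spermatids, with -1.16 (SE 0.24) in the remote myocardium, and by Izumo1, the sperm protein that binds the egg, with -0.95 (SE 0.21). They are shared with Ndufa13, a subunit of respiratory complex I, and with Rasip1. Of 7 oocyte regions Zp2, which encodes a protein of the egg coat, was called higher in both biopsies, at 0.81 (SE 0.20) in the area at risk and 0.84 (SE 0.17) in the remote myocardium. The region by the oocyte growth factor gene Gdf9, shared with Uqcrq, was called lower in the remote myocardium, at -0.53 (SE 0.18), and was not called in the area at risk. Of 8 regions of germ cell determination genes none was higher, and that within 2 kb of both Nanos2 and Mypop was lower in both, at -0.45 (SE 0.17) and -0.59 (SE 0.16), while that shared by Dnd1, Hars and Wdr55 was lower in the area at risk, at -0.63 (SE 0.23).

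**Figure D5:**
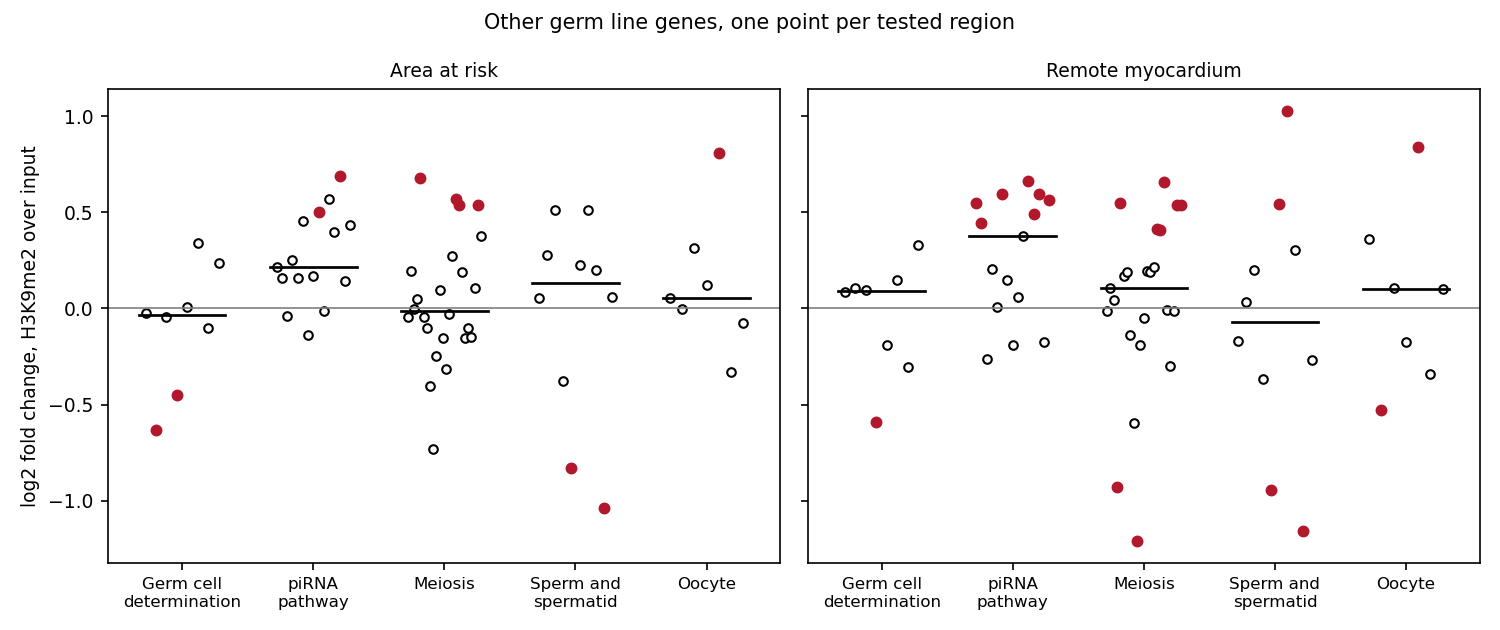
Log2 fold change of H3K9me2 over input (vertical axis) at the tested regions of the other germ line genes by role, in the area at risk (left) and the remote myocardium (right); each point is a region, filled red where called by edgeR's quasi-likelihood test, and black lines are medians. On the right 7 of 15 points of the piRNA pathway, from 5 genes, are filled and lie above 0, and points below -0.9 belong to regions by Rec8, Mei1, Tssk6 and Izumo1.

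Markers of heart cell types were set beside these genes as a description, since chromatin libraries do not show which cells a biopsy held. Cardiomyocyte markers (8 genes, 5 of them with a listed region) had 1 of 19 tested regions called higher and 10 lower in the remote myocardium (median -0.37), and 1 higher and 6 lower in the area at risk (median -0.44). These calls fell in few genes: in each biopsy 2 genes had only lower calls and 1 gene had both higher and lower calls. Remote biopsies had, for endothelial and mural markers, 2 higher and 5 lower of 27, fibroblast markers 2 higher and 4 lower of 9, and blood and immune markers 1 higher and 2 lower of 4. The area at risk gave 3 higher and 4 lower of 27, 1 and 1 of 9, and 0 and 1 of 4. Of all tested regions 20.5% were called higher and 20% lower in the remote myocardium, and 11.3% and 12.3% in the area at risk.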

How the data were processed

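Chromatin of cardiac biopsies (about 25 mg of tissue) was crosslinked, digested with enzyme and precipitated with an antibody against H3K9me2, per the labels' protocols, and inputs were kept as controls. The 4 tables that the authors deposited share 53386 regions of mm10 and hold whole-number read counts per region and library, not normalized as far as the values show. The deposited tables also give each region a log2 fold change, a p-value and an FDR; their log2 fold change has the opposite sign to the one used here, as the columns of counts show. Bowtie2 2.2.2, SICER 1.1 and edgeR are named without roles per the submitters' processing notes; how reads in overlapping regions or duplicates were treated is not given in the sources used here. Of the listed regions 5261 hold no reads.

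Each comparison of 2 groups was fitted to its 12 libraries in edgeR 4.0.16 (R 4.3.3). Each fit used its own TMM factors, the filterByExpr filter and the two-sided quasi-likelihood test. Computed once over all 24 libraries, TMM factors ran from 0.974 to 1.011. The p-values were adjusted by Benjamini-Hochberg over all tested regions and called under 0.05. The input-corrected difference is the interaction over all 24 libraries. CPM uses the total in the listed regions, since depth outside them is unknown. DESeq2 1.42.0, the mouse as block, no TMM factors, median-of-ratios size factors, no filter, all libraries in one fit, an FDR of 0.01, overlap with the gene itself and each mouse left out were alternatives. Tested on simulated data for the 2 H3K9me2 groups, with 200 of 48082 regions changed by 1 on the log2 scale, the fit recovered 105. For the input-corrected difference it recovered 32 of 200. The changed regions were drawn only from those with higher mean counts, so recovery at regions with few reads was not tried. Libraries with one mouse number come from one animal, which pairs them; deviations of same-numbered libraries from their group means correlated at -0.17 to 0.17. Libraries of a group differed by a chi-square per region of 1.02 to 2.03 over 60 pairs, where sampling noise alone gives 1, and each was counted as a replicate.

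The 4 genes, the list of 76 other germ line genes, the markers, the motifs and the rules were chosen with earlier results of these data known. All regions of the 4 genes are named. Of the other germ line genes, those with a called region are named, at most 5 per role by smallest p, each with the region of smallest p. Likeness is Pearson's r on log2(CPM + 1), over 35812 gene regions (35809 for Piwil2), and the 3 genes of highest r are named, except 1 for Piwil2 that is not reported here. Promoter sequences and gene coordinates are from RefSeq, GRCm38.p6, the assembly of mm10.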

Additional observations from a re-analysis of the deposited data

Results flagged for a closer look

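Within the groups of 6, 5 single values at the 7 regions stood apart from the rest of their group, by a gap to the nearest library past Dixon's 95% critical value. Chance gives such a value in about 1 in 20 groups, and 28 groups were looked at. Mouse 23 accounts for 3 of the 5, all in input libraries. Its area-at-risk input was lowest at Ddx4, with 19.0 CPM against 30.2 in the nearest library. Its remote input was highest at Ddx4, with 38.5 CPM against 27.1, and highest at Stra8, with 63.9 CPM against 46.5. The area-at-risk input of mouse 30 was highest at Piwil2 region 1, with 14.8 CPM against 8.46. The remote H3K9me2 library of mouse 22 was lowest at Piwil2 region 2, with 18.0 CPM against 27.4. Without mouse 23 the H3K9me2 enrichments of Ddx4 were still called in both biopsies by edgeR's quasi-likelihood test. The input difference of Ddx4 between the biopsies went from 0.13 to 0.41 without this mouse and was not called, and the regions with an unadjusted p under 0.05 between inputs went from 1157 to 2567.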

How the results depend on the processing

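The numbers pair the samples by animal. With the mouse as replicate block 2 regions at the 4 genes were called higher over input for the area at risk and 4 for the remote myocardium, as without it. Ddx4 and Piwil2 region 3 in both biopsies, and Prm1 in the remote myocardium, were called over input in all 13 alternatives; the exceptions at Stra8 and Prm1 are given in the report. Over all regions, calls over input went from 9670 to 10994 with the block and 6917 with DESeq2 for the area at risk, and from 16509 to 16907 and 13150 for the remote myocardium. An FDR of 0.01 left 3 higher and 2 lower regions of the other germ line genes in the area at risk and 8 higher in the remote myocardium, and DESeq2 left 2 lower in the area at risk.

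Each value whose sign turned was called under no setting. Without mouse 30 the input-corrected difference of Piwil2 region 1 went from -0.34 to 0.10 and its input difference from 0.19 to -0.12. Between the H3K9me2 groups Piwil2 region 4 went to -0.014 with the replicate block and -0.022 with DESeq2, and between inputs Piwil2 region 2 went to 0.00040 with the replicate block. With 1 mouse left out, the H3K9me2 difference between biopsies ran from -0.041 to 0.23 at Ddx4, -0.025 to 0.15 at Piwil2 region 2, -0.020 to 0.19 at region 3 and -0.14 to 0.15 at region 4. Between inputs it ran from -0.12 to 0.36 at Piwil2 region 1, -0.12 to 0.065 at region 2, -0.062 to 0.16 at region 3, -0.12 to 0.019 at region 4, -0.089 to 0.20 at Prm1 and -0.23 to 0.064 at Stra8. The input-corrected difference ran from -0.17 to 0.10 at Ddx4, -0.78 to 0.10 at Piwil2 region 1, -0.093 to 0.14 at region 2, -0.11 to 0.14 at region 3 and -0.15 to 0.29 at region 4. The cause was not tested. The regions held 1 to 58 reads per H3K9me2 library and 6 to 108 per input library.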

Other observations

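Regions of the other germ line genes differed by whether a second gene lay near, a split noticed after the values were seen. In the remote myocardium 14 of 40 tested regions with 1 gene within 2 kb were called higher over input and 0 lower, where 18.9% of all such regions were called higher and 18.3% lower. Regions with 2 or more genes within 2 kb had 2 of 23 called higher and 6 lower, where 9.78% and 36.1% of all such regions were. The area at risk gave 6 higher and 0 lower of 40 (10.1% and 10.3% of all such regions) and 1 higher and 4 lower of 24 (5.23% and 25.3%). At the 4 genes the 4 tested regions with 1 gene near, at Ddx4, Piwil2 region 3, Prm1 and Stra8, were called in the remote myocardium, and 2 of them in the area at risk. Piwil2 region 1, which also has 1 gene near, was not tested. Piwil2 regions 2 and 4, which have other genes near, were called in neither biopsy. The shares over all regions differ by this split too. Both the 4 genes and the list were chosen with results over input known, so nothing is read from these counts.

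By sex, 3 females and 3 males per group, CPM overlapped at the 7 regions except in the remote inputs at Ddx4, with 21.2 to 23.7 in females and 25.2 to 38.5 in males, and at Piwil2 region 1, with 4.27 to 7.08 in females and 7.10 to 8.47 in males. No test was made of this split.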
